A study of Mus musculus with 8 samples.

Results

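The JAK kinases and STAT transcription factors described here are 9 genes of the 47937 in the count tables, namely Jak1, Jak2, Jak3, Tyk2, Stat2, Stat3, Stat5a, Stat5b and Stat6. They were chosen by name, through the gene names that the authors paired with Ensembl IDs. The choice used no measured value as a rule, but it was made with earlier results of these data known. RNA came from cultured mouse pro-B cells, early B-lymphocyte precursors, which the Abelson murine leukaemia virus (A-MuLV) had transformed into continuously growing cells. The genotype of every culture was EBF1-dTAG_N, in which endogenous EBF1, a transcription factor needed for B-lineage commitment, was replaced by an exogenous modified gene carrying a degron tag. One group received 0.5 µM dTAG-13, a small molecule that directs tagged proteins to degradation, for 6 h, and the other received the solvent DMSO, with 4 biological replicates each. Libraries of DMSO cultures are titled 0 h, but the treatment recorded for them is DMSO for 6 h. All cultures carried the tag, so an action of dTAG-13 itself cannot be told apart from loss of EBF1. Whether the line was a single clone was not given in the sources used here, and the listed culture medium names no cytokine.

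JAK kinases sit on the cytoplasmic tails of cytokine receptors. When a cytokine brings receptor chains together, the kinases phosphorylate each other and the receptor, STAT proteins dock on the phosphorylated tail, and the phosphorylated STATs pair up and move to the nucleus, where they bind DNA. In pro-B cells the best known branch is that of interleukin-7, whose receptor uses JAK1 and JAK3 and acts mainly through STAT5A and STAT5B. The viral Abl kinase of A-MuLV is known to activate JAK-STAT signalling in transformed pre-B cells without added cytokine. RNA abundance was measured here, and phosphorylation was not.

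Library facts bear on all values. The 8 libraries held 28982316 to 38999496 exonic reads, and an exact two-sided permutation test did not separate the groups by depth (p = 0.2, adjusted over 2 library measures p = 0.4). Levels are given in CPM, a gene's reads divided by the TMM-scaled library total and multiplied by a fixed power of 10. Exonic CPM uses the total of exonic reads, and intronic CPM uses the total of intronic reads. A value is thus a share of its own read class, and exonic and intronic CPM of a gene cannot be compared as amounts. In a bulk culture fewer cells of a type and less RNA per cell cannot be told apart. The pro-B markers Cd79a, Cd79b, Vpreb1, Igll1, Rag1, Pax5 and Ebf1 were all detected, with a summed level of 1726 to 1868 CPM in dTAG-13 libraries and 2142 to 2230.1 CPM in DMSO libraries. Of these, 6 of 7 fell and Ebf1 rose in exonic reads, beside 14.0% of all tested genes called lower and 14.3% called higher. Ebf1 had 816, 757, 723 and 773 exonic CPM in dTAG-13 libraries and 639, 608, 615 and 628 exonic CPM in DMSO libraries (edgeR log2 fold change 0.30, adjusted p = 2.1e-07). In intronic reads Ebf1 did not pass (edgeR log2 fold change 0.09, adjusted p = 0.66). The Ebf1 RNA does not report on the protein that the compound targets. The T-cell markers Cd3e, Cd3g, Cd4 and Cd8a had no exonic read in any library, and the remaining one of the 5 listed, Cd5, averaged 0.147 CPM with dTAG-13 and 0.208 CPM with DMSO. The summed levels of 3 NK-cell markers were 0.381 to 0.727 CPM with dTAG-13 and 0.104 to 0.261 CPM with DMSO, and those of 5 myeloid markers were 0.485 to 1.12 CPM with dTAG-13 and 0.162 to 0.449 CPM with DMSO. Those of 3 erythroid markers reached 0.200 CPM with dTAG-13 and 0.0783 CPM with DMSO, and those of 3 stromal markers 0.272 CPM with dTAG-13 and 0.0691 CPM with DMSO. Of the markers of other cell types, only Klrb1c (NK cell) and Lyz2 (myeloid) had enough reads for the test, and both were called higher. Their log2 fold changes were 1.34 and 1.27 (edgeR adjusted p = 0.025 and 0.031), from mean levels below 1 CPM in both groups. The part of all these markers in the results below was not tested.

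After 6 h of dTAG-13, exonic RNA of 4 of the 9 genes rose, and none of the 9 passed the test in the downward direction. The 4 were the kinases Jak1 and Jak3 and the transcription factors Stat2 and Stat3, and their increases were small, between 1.15-fold for Jak3 and 1.23-fold for Stat3. Jak2, Tyk2, Stat5a, Stat5b and Stat6 did not pass, and none of these 5 had an unadjusted p under 0.05 either. The test was edgeR's quasi-likelihood F test with Benjamini-Hochberg adjustment over 12889 genes at a threshold of 0.05, which called 28.3% of all tested genes, 14.3% higher and 14.0% lower. The median log2 fold change was 0.06 over the 9 genes and 0.00 over all tested genes. The groups were fully separate for the same 4 genes, with dTAG-13 above DMSO. Among all tested genes the groups were separate in 27.7%, with dTAG-13 above in 14.2% and below in 13.5%.

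**Figure D1:**
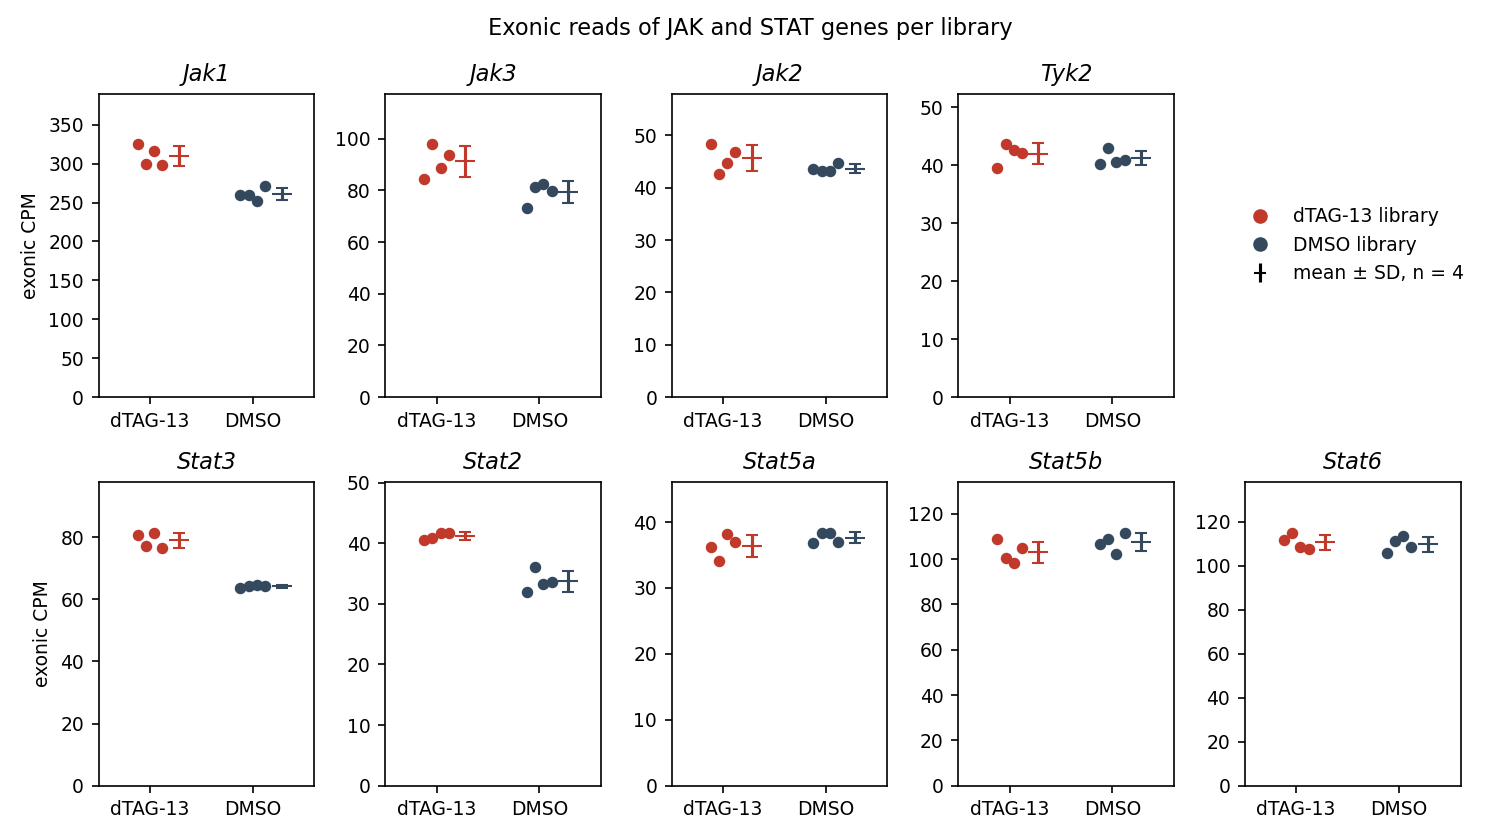
Exonic CPM of the 9 genes in each library, with 1 panel per gene, a vertical axis that starts at 0, dTAG-13 libraries on the left and DMSO libraries on the right. Points are libraries, and the crosses give the mean ± SD (n = 4). The groups are separate for Jak1, Jak3, Stat3 and Stat2 and overlap in the other 5 panels.

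Jak1 (ENSMUSG00000028530.14, chr4:101152367-101265282 on the minus strand of GRCm38) encodes the kinase shared by the interferon, gamma-chain and gp130 families of cytokine receptors. Its exonic level was 325, 299, 316 and 298 CPM in dTAG-13 libraries and 259, 259, 252 and 271 CPM in DMSO libraries. Every dTAG-13 library lay above every DMSO library. Jak1 rose by 0.25 ± 0.04 on the log2 scale (SE; edgeR adjusted p = 7.1e-06), with means of 309.6 ± 12.98 CPM with dTAG-13 and 260.4 ± 7.59 CPM with DMSO (SD, n = 4 each).

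Jak3 (ENSMUSG00000031805.17, chr8:71676296-71690575, plus strand) encodes the kinase that binds the common gamma chain, the shared subunit of the receptors for interleukins 2, 4, 7, 9, 15 and 21. It had 84.4, 97.9, 88.8 and 93.6 exonic CPM in dTAG-13 libraries and 73.3, 81.5, 82.6 and 79.8 exonic CPM in DMSO libraries. The groups did not overlap, although the lowest dTAG-13 library was close to the highest DMSO library. The rise was 0.20 ± 0.05 on the log2 scale (edgeR adjusted p = 0.0015). Jak3 shares 404 exonic bases with Insl3, a hormone gene on the same strand whose own exonic level was 0.979 to 1.96 CPM with dTAG-13 and 0.933 to 1.43 CPM with DMSO. Jak3 and Insl3 overlap over 1362 bases in all, so intronic reads of Jak3 are touched as well. How reads in this overlap were assigned was not given in the sources used here.

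Jak2 (ENSMUSG00000024789.12, chr19:29251828-29313080, plus strand) encodes the kinase of the erythropoietin, thrombopoietin and common beta-chain receptors. Its exonic level was 48.4, 42.7, 44.8 and 46.8 CPM with dTAG-13 and 43.7, 43.2, 43.1 and 44.8 CPM with DMSO. One dTAG-13 library lay below all DMSO libraries and the others reached or passed the highest of them. The log2 fold change of 0.06 did not pass (edgeR adjusted p = 0.36), and its 95% interval ran between -0.03 and 0.16.

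Tyk2 (ENSMUSG00000032175.10, chr9:21104068-21131243, minus strand) encodes the kinase that partners JAK1 or JAK2 on receptors for type I interferon, interleukin-12 and interleukin-23. It had 39.5, 43.7, 42.7 and 42.2 exonic CPM with dTAG-13 and 40.3, 43.0, 40.5 and 41.0 exonic CPM with DMSO. The libraries of both groups were interleaved. The log2 fold change was 0.03 with a 95% interval between -0.07 and 0.13 (edgeR adjusted p = 0.72). An antisense transcript, 1700084C06Rik, shares 554 exonic bases with Tyk2 and had 0.649 to 1.38 CPM with dTAG-13 and 0.297 to 0.8294 CPM with DMSO. Introns included, it overlaps Tyk2 over 24326 of the 27176 bases of Tyk2. Intronic reads of Tyk2 are therefore touched as well, and the strand setting of the counting was not given in the sources used here.

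Summed over the 4 kinases, exonic reads made up 488 ± 7.52 CPM in dTAG-13 libraries and 425 ± 8.998 CPM in DMSO libraries (SD, n = 4 each), and Jak1 supplied most of the sum in both. Tyk2 was 0.136 ± 0.0106 of Jak1 with dTAG-13 and 0.158 ± 0.00618 of Jak1 with DMSO. The 4 dTAG-13 values of this ratio were all below the 4 DMSO values, at the smallest p the exact two-sided permutation test allows with 4 against 4 (p = 0.029), which became 0.086 when adjusted over the 3 ratios tested. Jak3 was 0.295 ± 0.0306 of Jak1 with dTAG-13 and 0.305 ± 0.0199 of Jak1 with DMSO, and the groups overlapped (exact permutation p = 0.51, adjusted p = 0.77).

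Stat3 (ENSMUSG00000004040.16, chr11:100885098-100939540, minus strand) encodes the factor activated by the interleukin-6 and interleukin-10 families. It had the smallest p of the 9 genes. The exonic level was 80.6, 77.2, 81.5 and 76.4 CPM in dTAG-13 libraries and 63.5, 64.4, 64.7 and 64.1 CPM in DMSO libraries. The lowest dTAG-13 library was well above the highest DMSO library, and the DMSO libraries were almost level with each other. Stat3 rose by 0.30 ± 0.04 on the log2 scale (SE; edgeR adjusted p = 9.6e-07), with means of 78.9 ± 2.50 CPM with dTAG-13 and 64.2 ± 0.523 CPM with DMSO (SD, n = 4 each).

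Stat2 (ENSMUSG00000040033.15, chr10:128270559-128292849, plus strand) encodes the STAT that carries type I interferon signals together with IRF9. Its exonic level was 40.5, 40.9, 41.8 and 41.6 CPM with dTAG-13 and 32.0, 36.1, 33.3 and 33.6 CPM with DMSO. The groups were separate, and here the dTAG-13 libraries were the tighter group. Stat2 rose by 0.29 ± 0.05 on the log2 scale, 1.22-fold (edgeR adjusted p = 4.3e-05).

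Stat5a (ENSMUSG00000004043.14, chr11:100859351-100885169, plus strand) and Stat5b (ENSMUSG00000020919.11, chr11:100780731-100850724, minus strand) encode the near-identical pair that relays interleukin-7 in B-cell precursors. Stat5a had 36.2, 34.1, 38.1 and 36.9 exonic CPM with dTAG-13 and 36.8, 38.4, 38.4 and 36.9 exonic CPM with DMSO. Stat5b had 109, 100.4, 98.4 and 105 exonic CPM with dTAG-13 and 107, 109, 102 and 112 exonic CPM with DMSO. For both genes the groups overlapped. The log2 fold change was -0.05 for Stat5a (95% interval between -0.15 and 0.05, edgeR adjusted p = 0.51) and -0.06 for Stat5b (95% interval between -0.14 and 0.03, edgeR adjusted p = 0.32). These intervals leave room for changes in either direction that are smaller than the rises of Stat2 and Stat3.

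Among the 4 kinases and among the 5 STATs, the Stat5 pair is the only pair whose transcripts share long stretches of sequence in the same direction. The principal coding sequences in GENCODE vM21 are 2379 bases for Stat5a and 2358 bases for Stat5b and are identical at 88.8% of aligned positions. Windows of 50 bases were then compared over all annotated transcripts, untranslated parts included, each read in its own direction. Of these windows, 8.21% of those in Stat5a and 11.0% of those in Stat5b also occur in the other gene. No other pair within either family shares such a window. Opposite strands were not compared, and Stat5a and Stat3 overlap there by 72 bases. The longest identical run of the Stat5 pair spans coding bases 571 to 894 of Stat5a and of Stat5b, 324 bases in all. Its first 120 bases are shown in capitals as read from Stat5a, after 30 bases of flank in lower case, because a read inside the run cannot be assigned to 1 of the genes by sequence. The last 120 coding bases of each gene are shown beside it as a stretch where the genes differ.
Stat5a, coding bases 571 to 690 after the flank: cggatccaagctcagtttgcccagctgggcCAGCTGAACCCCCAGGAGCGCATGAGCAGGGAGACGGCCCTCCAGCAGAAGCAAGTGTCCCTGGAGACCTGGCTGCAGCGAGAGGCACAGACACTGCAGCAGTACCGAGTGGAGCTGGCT
Stat5a, coding bases 2260 to 2379: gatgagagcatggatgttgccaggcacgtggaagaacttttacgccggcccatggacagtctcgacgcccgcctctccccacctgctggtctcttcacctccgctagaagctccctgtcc
Stat5b, coding bases 2239 to 2358: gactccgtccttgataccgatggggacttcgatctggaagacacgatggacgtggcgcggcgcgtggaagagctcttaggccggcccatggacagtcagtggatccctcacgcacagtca
How the authors' counting treated reads with several matches was not given in the sources used here, so the split between the genes is uncertain. Their sum does not depend on that split where such reads were counted, and it was 139 ± 4.72 CPM with dTAG-13 and 145 ± 3.57 CPM with DMSO (SD, n = 4 each). The ratio of Stat5a to Stat5b was 0.353 ± 0.0244 with dTAG-13 and 0.351 ± 0.0185 with DMSO (exact permutation p = 0.91).

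Stat6 (ENSMUSG00000002147.18, chr10:127642986-127660957, plus strand) encodes the factor of interleukin-4 and interleukin-13. It had 111, 115, 108 and 108 exonic CPM with dTAG-13 and 106, 111, 113 and 108 exonic CPM with DMSO. The libraries of the groups were interleaved. Its log2 fold change was 0.01 with a 95% interval between -0.07 and 0.09 (edgeR adjusted p = 0.87), the smallest size among the 9.

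Levels of different genes were compared per kilobase of annotated exon, with exons merged over all annotated transcripts of a gene. Transcripts that the cells do not make add to this length, so the order depends partly on the annotation. Jak1 stood first with 42.8 CPM per kb in dTAG-13 libraries and 36.0 CPM per kb in DMSO libraries. Stat6 followed with 25.1 CPM per kb with dTAG-13 and 24.9 CPM per kb with DMSO, then Stat5b with 18.6 CPM per kb with dTAG-13 and 19.4 CPM per kb with DMSO, and Jak3 with 17.0 CPM per kb with dTAG-13 and 14.8 CPM per kb with DMSO. The lower 5 genes, Jak2, Stat3, Stat2, Tyk2 and Stat5a, had means between 5.10 and 9.08 CPM per kb with dTAG-13 and between 5.28 and 8.69 CPM per kb with DMSO. The neighbours Stat5b and Jak3 had overlapping libraries with dTAG-13 and separate ones with DMSO, and the same held for Jak2 and Stat3. Stat2 and Tyk2 stood in the opposite order in the 2 groups, with Stat2 at 6.95 and Tyk2 at 6.12 CPM per kb with dTAG-13, and Stat2 at 5.69 and Tyk2 at 6.00 CPM per kb with DMSO, where their libraries overlapped. Among the STATs, Stat5a was the lowest and Stat6 the highest in both groups.

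**Figure D2:**
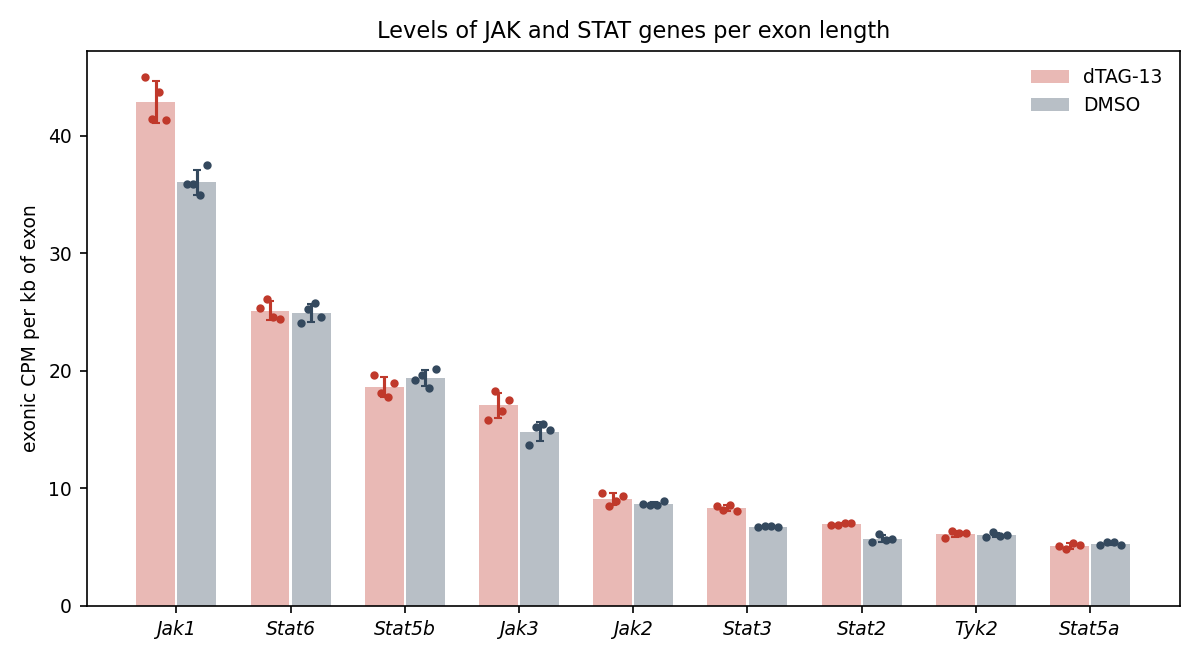
Exonic level per kilobase of annotated exon for the 9 genes, ordered by the mean with dTAG-13. Bars start at 0 and give the mean, lines the SD (n = 4), points the libraries, with dTAG-13 left of DMSO for each gene. Jak1 is the highest in both groups, at 42.8 CPM per kb with dTAG-13 and 36.0 CPM per kb with DMSO.

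Intronic reads, counted as whole-gene minus exonic reads, come mostly from RNA that has not yet been spliced and were tested in the same way. Stat3 and Jak3 rose in intronic reads, and none of the 9 genes passed downward, against 16.8% of 11229 tested genes called, 8.26% higher and 8.50% lower. The 3 genes with an unadjusted p under 0.05 were Stat3, Jak3 and Jak1, and all 3 had positive changes. Stat3 had 84.1, 83.8, 91.4 and 93.9 intronic CPM in dTAG-13 libraries and 65.2, 67.2, 74.1 and 81.7 intronic CPM in DMSO libraries. Its groups were separate, which held for 19.5% of all tested genes, 9.51% with dTAG-13 above and 10.0% with dTAG-13 below. The intronic rise was 0.29 ± 0.08 on the log2 scale (edgeR adjusted p = 0.0097), beside 0.30 in exonic reads.

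Jak3 had 65.5, 73.2, 72.8 and 64.7 intronic CPM with dTAG-13 and 54.1, 68.5, 54.3 and 55.5 intronic CPM with DMSO. DMSO replicate 2 lay within the dTAG-13 libraries, and the other DMSO libraries were below all of them. The intronic rise of Jak3 was 0.25 ± 0.09 on the log2 scale with an adjusted p close to the threshold (edgeR, 0.043). That call was lost when 1 library was left out in 5 of 8 cases, with an edgeR adjusted p of 0.087 without DMSO replicate 1, 0.105 without DMSO replicate 3, 0.091 without DMSO replicate 4, 0.134 without dTAG-13 replicate 2 and 0.128 without dTAG-13 replicate 3.

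Jak1 had 542, 499.9, 489.9 and 572 intronic CPM with dTAG-13 and 449.5, 454, 458 and 487 intronic CPM with DMSO. Its groups were separate, with a narrow gap, yet the change of 0.19 ± 0.07 on the log2 scale missed the threshold (edgeR adjusted p = 0.057). DESeq2's Wald test on the same counts put Jak1 at an adjusted p of 0.020, and without dTAG-13 replicate 3 edgeR gave 0.042, so this call depends on the test and on 1 library.

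Stat2 had 25.4, 28.2, 30.5 and 23.3 intronic CPM with dTAG-13 and 18.6, 27.6, 25.0 and 18.9 intronic CPM with DMSO. The groups overlapped, and the libraries of each group were widely spread. The log2 fold change of 0.25 had a 95% interval between -0.02 and 0.53 (edgeR adjusted p = 0.23), which includes the exonic rise of Stat2. For the genes without an exonic call, the intronic log2 fold changes were 0.07 for Jak2, 0.19 for Tyk2, -0.14 for Stat5a, 0.11 for Stat5b and 0.00 for Stat6, with edgeR adjusted p between 0.265 for Stat5b and 0.993 for Stat6. Leaving out 1 library at a time moved these values by more than 1.5 times without a call, between 0.0041 and 0.17 for Jak2, 0.14 and 0.34 for Tyk2, -0.23 and -0.036 for Stat5a, 0.078 and 0.18 for Stat5b, and -0.11 and 0.065 for Stat6.

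**Figure D3:**
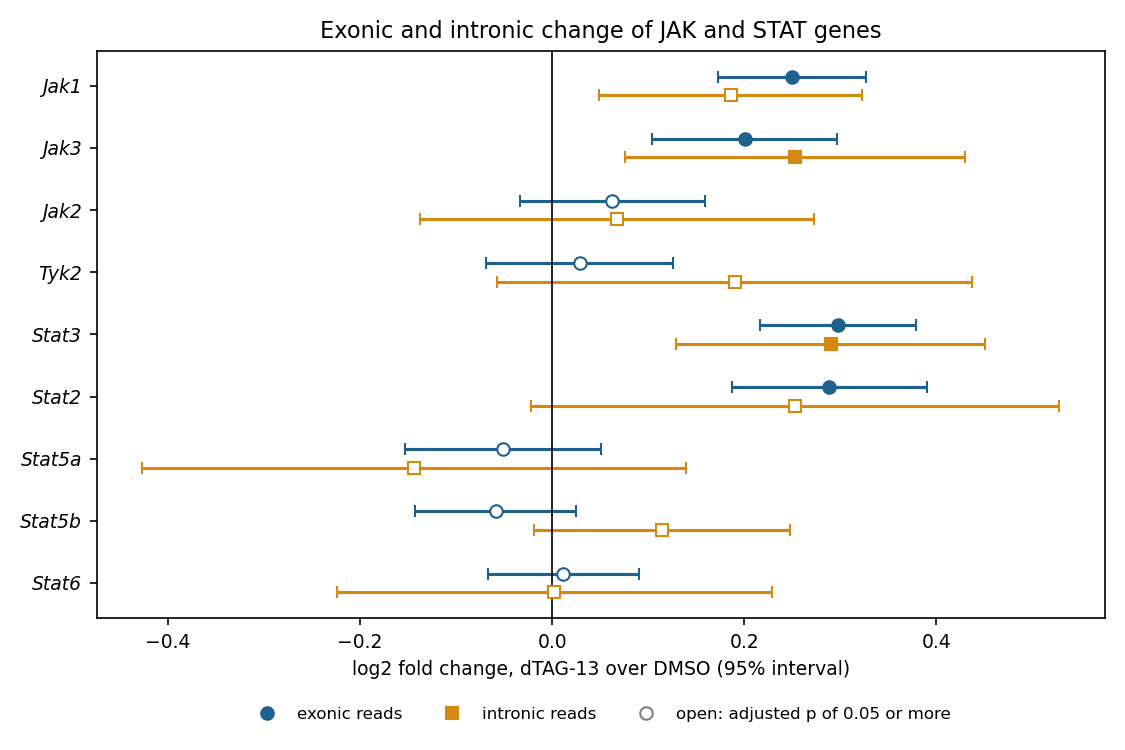
Log2 fold change of dTAG-13 over DMSO for each gene in exonic reads (circles) and intronic reads (squares), with 95% intervals from the edgeR fit (n = 4 libraries each). Filled symbols passed an adjusted p of 0.05 and open symbols did not. Exonic symbols are filled for Jak1, Jak3, Stat3 and Stat2, and intronic symbols for Jak3 and Stat3, and intronic intervals are the wider of each pair.

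Whether exonic and intronic changes differed was tested directly in a model over both read classes. None of the 9 genes was called, beside 0.309% of the 10026 genes in that test, 0.160% higher and 0.150% lower, and edgeR adjusted p ran between 0.575 and 1.00 over the 9. For Stat3 the exonic minus intronic change was 0.00 with a 95% interval between -0.18 and 0.18, and for Jak1 it was 0.06 with an interval between -0.08 and 0.20. Stat5b was the 1 gene with an unadjusted p under 0.05 in this test, with an exonic minus intronic change of -0.18 (edgeR adjusted p = 0.57). Its intronic level was 210.3, 220.5, 225 and 215 CPM with dTAG-13 and 193, 186, 224 and 201 CPM with DMSO, so 1 DMSO library lay among the dTAG-13 libraries.

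The authors' deposited table, made with DESeq2, calls the same 4 genes in exonic reads at an adjusted p under 0.05, with log2 fold changes of 0.24 for Jak1, 0.19 for Jak3, 0.28 for Stat2 and 0.29 for Stat3, and it calls none of the 9 lower in either read class. In intronic reads the authors' deposited table passes Jak1 (log2 fold change 0.18, adjusted p = 0.020), Jak3 (0.23, adjusted p = 0.048) and Stat3 (0.27, adjusted p = 0.0088). Jak1 is the 1 member on which that table and the edgeR test above fall on different sides of the threshold. For all 9 genes the deposited adjusted p-values equal those of DESeq2's Wald test rerun on the same counts. The deposited table is thus the same calculation and adds no independent test, although its log2 fold changes are smaller in size than those of the rerun.

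The share of intronic reads in a gene's total differed widely between the genes. It was highest for Stat5b, at 39.1 ± 3.90% with dTAG-13 and 36.8 ± 4.10% with DMSO, and lowest for Stat6, at 9.38 ± 2.72% with dTAG-13 and 9.51 ± 0.772% with DMSO (SD, n = 4 each). Over whole libraries, intronic reads made up 23.2 ± 3.13% with dTAG-13 and 23.9 ± 1.63% with DMSO (exact permutation p = 0.71, adjusted over 2 library measures p = 0.71). Intron length enters that share, so read density was compared as well. Per kilobase of intron, Jak3 had the highest level, at 7.73 intronic CPM per kb with dTAG-13 and 6.51 intronic CPM per kb with DMSO. In reads per kb, not CPM, its intronic density was 13.8 ± 1.17% of its exonic density with dTAG-13 and 13.6 ± 0.703% with DMSO. For Jak1 that percentage was 3.58 ± 0.817% with dTAG-13 and 3.78 ± 0.329% with DMSO, although Jak1 had the largest number of intronic reads.

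Stat5b, Stat5a and Stat3 lie side by side on chromosome 11. Stat5b and Stat5a point away from each other with 8626 bases between them, and the 3′ ends of Stat5a and Stat3 overlap by 72 bases on opposite strands. Within this cluster Stat3 rose in exonic and intronic reads, whereas the exonic and intronic intervals of Stat5a and Stat5b included 0. The libraries were stranded, but the strand setting of the counting was not given in the sources used here, so reads in the 72 shared bases cannot be placed with certainty. Stat6 likewise shares 40 exonic bases with Nab2 on the other strand, which had 19.5 to 21.9 CPM with dTAG-13 and 15.2 to 17.7 CPM with DMSO.

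**Figure D4:**
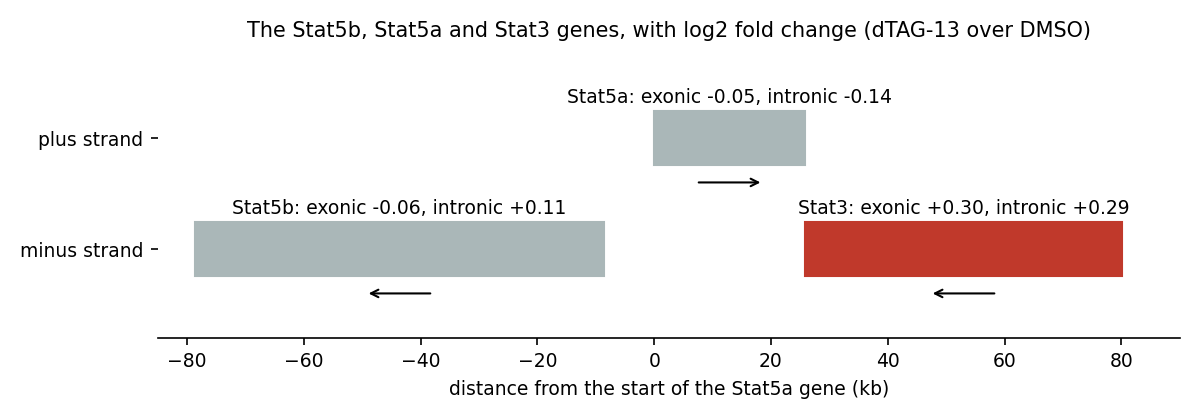
Map of Stat5b, Stat5a and Stat3 drawn to scale, with the distance from the start of Stat5a in kilobases on the horizontal axis and the strands on separate rows. Arrows give the direction of transcription, and labels give exonic and intronic log2 fold changes of dTAG-13 over DMSO. The red gene, Stat3, passed the exonic test, and the grey genes, with exonic changes of -0.06 for Stat5b and -0.05 for Stat5a, did not.

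The 250 bases before the annotated start of the 4 genes that rose are printed to show what lies next to their start sites. The starts are those of the RefSeq annotation of GRCm38.p6 and can differ from the GENCODE coordinates given above. By the GENCODE coordinates, the Jak1 and Jak3 windows reach into the gene, and the Stat2 window ends short of it. They were searched on both strands for 3 motifs. The EBF1 motif was TCCC and GGGA with 2 bases between, the STAT motif TTC and GAA with 3 bases between, and the interferon-stimulated response element GAAA and GAAA with 2 bases between. No match overlapped another, and the 1 match found is in capitals.
Jak1, chr4:101265224-101265473, minus strand: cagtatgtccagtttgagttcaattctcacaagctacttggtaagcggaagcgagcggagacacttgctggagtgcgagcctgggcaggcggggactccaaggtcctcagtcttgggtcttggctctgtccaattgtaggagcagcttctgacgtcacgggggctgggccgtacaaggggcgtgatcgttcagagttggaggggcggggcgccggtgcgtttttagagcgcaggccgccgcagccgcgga
Jak3, chr8:71676133-71676382, plus strand: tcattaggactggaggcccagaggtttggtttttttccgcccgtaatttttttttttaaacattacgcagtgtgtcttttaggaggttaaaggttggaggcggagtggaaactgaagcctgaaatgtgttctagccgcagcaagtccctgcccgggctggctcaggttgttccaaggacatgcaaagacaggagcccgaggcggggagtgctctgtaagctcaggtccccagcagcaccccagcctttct
Stat2, chr10:128270248-128270497, plus strand: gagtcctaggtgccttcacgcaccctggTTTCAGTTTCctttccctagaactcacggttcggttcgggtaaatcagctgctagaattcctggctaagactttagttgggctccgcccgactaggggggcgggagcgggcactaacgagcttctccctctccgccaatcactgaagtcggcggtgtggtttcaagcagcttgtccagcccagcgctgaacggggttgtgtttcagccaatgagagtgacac
Stat3, chr11:100939541-100939790, minus strand: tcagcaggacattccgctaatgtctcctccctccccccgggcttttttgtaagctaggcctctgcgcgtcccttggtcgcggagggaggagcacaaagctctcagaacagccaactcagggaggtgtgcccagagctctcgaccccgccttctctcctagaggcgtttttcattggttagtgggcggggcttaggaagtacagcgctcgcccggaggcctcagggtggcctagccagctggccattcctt
The table held 11 windows for the 9 genes, with 2 each for Stat5a and Stat5b. None of the 11 held the EBF1 motif, which occurs in 0.779% of all 32851 windows, and none held the STAT motif, which occurs in 7.02%. The interferon-stimulated response element, the sequence to which STAT2 binds as part of a complex with IRF9, occurs in 2.98% of all windows and in 1 of the 11, that of Stat2, where it begins 222 bases before the start. These matches describe letters in a short window and say nothing of binding.

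The other genes of the pathway were counted in lists of receptors, ligands, inhibitors, partners and STAT targets. Of 33 cytokine receptor genes, 19 were tested in exonic reads, of which 8 rose and 5 fell, with a median log2 fold change of 0.24, beside 14.3% of all tested genes called higher and 14.0% called lower. Il7r, the specific chain of the interleukin-7 receptor to which JAK1 binds, fell, with 230.4 ± 8.69 CPM with dTAG-13 and 299 ± 7.33 CPM with DMSO (SD, n = 4 each; edgeR log2 fold change -0.38, adjusted p = 4.5e-09). Il2rg, the common gamma chain to which JAK3 binds, rose, with 39.9 CPM with dTAG-13 and 29.1 CPM with DMSO (edgeR log2 fold change 0.46, adjusted p = 3.1e-07), and it was picked after its values were seen. Il12rb1, a TYK2-binding chain of the interleukin-12 receptor, had 5.30 CPM with dTAG-13 and 0.909 CPM with DMSO, and Il3ra had 45.3 CPM with dTAG-13 and 33.2 CPM with DMSO (edgeR adjusted p = 7.1e-11 and 5.7e-08).

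Of 11 ligand genes, 2 were tested, and they moved in opposite directions. Lif, a cytokine that signals through JAK1 and STAT3, fell to 12.5 ± 0.515 CPM with dTAG-13, against 30.8 ± 1.65 CPM with DMSO (edgeR adjusted p = 9.3e-15). Osm, a relative of Lif, had 13.7 CPM with dTAG-13 and 10.8 CPM with DMSO (edgeR log2 fold change 0.35, adjusted p = 0.0020).

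Of 19 inhibitors of the pathway 18 were tested, of which 9 rose and 2 fell, with a median log2 fold change of 0.13, read against the same shares of all genes. Cish, a STAT5-induced inhibitor that binds receptor tails, had 65.2 ± 2.52 CPM with dTAG-13 and 34.1 ± 0.571 CPM with DMSO, 1.91-fold (edgeR adjusted p = 2.7e-15). Ptpn6, the phosphatase SHP-1, and Socs1, which blocks JAK1, JAK2 and TYK2 directly, rose by 0.70 and 0.73 on the log2 scale (edgeR adjusted p = 6.6e-14 and 9.2e-13). Socs3, an inhibitor best known for limiting STAT3 signalling, fell by 0.73 on the log2 scale (edgeR adjusted p = 6.4e-11), and it was picked after its values were seen.

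Of 8 partner genes, 3 rose and 1 fell in exonic reads, with a median log2 fold change of 0.14. Among all tested genes 14.3% were called higher and 14.0% lower. The adaptor Sh2b1, which binds JAK2, fell by 0.34 on the log2 scale, and the coactivators Ep300 and Ncoa1 rose by 0.26 and 0.19 (edgeR adjusted p = 4.2e-07, 1.5e-05 and 0.0010). Irf9, the DNA-binding partner of STAT2, was picked after its values were seen and rose with Stat2, with 20.6 CPM with dTAG-13 and 16.7 CPM with DMSO (edgeR log2 fold change 0.30, adjusted p = 0.0063).

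Of 11 known STAT target genes, 4 rose and 3 fell in exonic reads, beside 14.3% of all tested genes called higher and 14.0% called lower. The median log2 fold change was 0.04, and the list had no common direction. Myc fell by 1.42 and Ccnd3, a D-type cyclin, fell by 0.90 on the log2 scale, while the survival kinase gene Pim2 rose by 0.40 (edgeR adjusted p = 1.8e-20, 2.6e-18 and 3.2e-10). In intronic reads, where 8.26% of all tested genes were called higher and 8.50% lower, 8 of 17 tested receptor genes rose and 2 fell, and 5 of 17 inhibitors rose and 1 fell. Of 8 partners 1 rose and 1 fell, of 9 STAT targets 2 rose and 3 fell, and of 2 ligands 1 fell and the other did not pass.

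**Figure D5:**
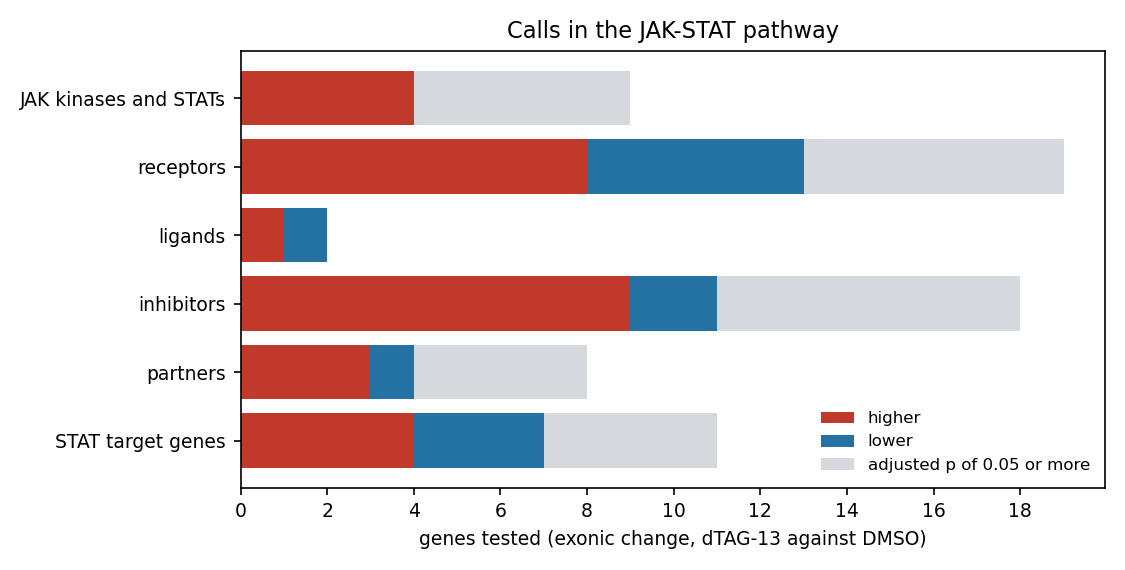
Number of genes tested in exonic reads in each list of the JAK-STAT pathway (horizontal axis), split into those called higher with dTAG-13, called lower and not called at an adjusted p of 0.05. The 9 JAK and STAT genes hold 4 higher calls and no lower call, and the 18 inhibitors hold 9 higher and 2 lower calls.

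Among all tested genes other than predicted ones and antigen receptor segments, the exonic levels of Sec14l1, Rac2 and Slc14a1 were most like that of Stat3 over the 8 libraries. Pearson's r of log2 CPM was 0.997 for Sec14l1, 0.995 for Rac2 and 0.995 for Slc14a1. All 8 libraries enter these values and both genes of each pair rose with dTAG-13, by 0.36, 0.37 and 0.60 on the log2 scale for the 3 genes, so the likeness holds the difference between groups.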

How the data were processed

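Libraries were stranded and made from column-purified total RNA depleted of ribosomal RNA, per the labels' protocols. The authors deposited raw counts per gene for exons and for whole genes, as the series' design text says. Their DESeq2 table holds log2 fold changes and p-values, per the file headers. Its standard errors (entered as score values) are also the authors', per the file headers. Tools named in the submitters' processing notes are Subread 2.0.0, featureCounts, STAR 2.7.4a, DESeq2, deepTools 3.3.2 and SAMtools 1.10, with builds mm10 and GRCm38.p4, and how these were used was not given in the sources used here.

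Intronic counts were whole-gene minus exonic counts. Counts were scaled by TMM factors, filtered with filterByExpr (minimum count 10 and minimum total 15) and tested by the quasi-likelihood F test of edgeR 4.0.16 in R 4.3.3 with treatment as the only term. Adjustment over all tested genes was by Benjamini-Hochberg. All 9 members passed the filter in both read classes. The exonic minus intronic change was fitted over 16 columns with the library as a block. DESeq2 1.42.0 was an alternative, as were other scaling, no filter, whole-gene counts, a replicate block, leaving out Gm26917 and Gm42418 (25.7 to 29.3% of exonic reads), and leaving out each library. Coordinates and lengths came from GENCODE vM21, in which 39192 IDs had the same version and those of Jak2, Tyk2 and Stat2 did not.

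The members' exonic counts were 925 to 12160 per library and intronic counts 164 to 7172, and the median standard error over all genes was 0.07 and 0.11 on the log2 scale. Replicates of a group differed beyond sampling noise, with a chi-square of 4.78 to 13.5 for each degree of freedom. Fits were tested on simulated data. Named genes were the 9 members, Ebf1, the 3 genes with the smallest exonic p of each pathway list and the 3 most like the member with the smallest p; others are marked where they stand. The members, lists and rules were chosen with earlier results of these data known. A marker gene of the lists is not reported here.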

Additional observations from a re-analysis of the deposited data

Results flagged for a closer look

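Of 46 sets of 4 libraries examined, each a measure of the members or of library quality in 1 group, 1 held a library far from the other 3, and chance gives about 1 in 20. It was the intronic level of Jak3 in DMSO, where replicate 2 had 68.5 CPM and the others had 54.1, 54.3 and 55.5 CPM. The gap between replicate 2 and its nearest neighbour was 0.904 of the whole range, above Dixon's critical value for 4 samples. Without that library the intronic rise of Jak3 was 0.34 on the log2 scale (edgeR adjusted p = 0.0050), against 0.25 with it.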

How the results depend on the processing

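The exonic calls of Jak1, Jak3, Stat2 and Stat3 held under all 14 alternatives. In exonic reads, whole-gene counts turned Stat5b to 0.0060 on the log2 scale, took the call from Ncoa1 (0.14, edgeR adjusted p = 0.070) and turned the log2 ratio of Stat5a to Stat5b to -0.064. Leaving out 1 library at a time gave log2 changes of Stat6 between -0.0078 and 0.027. In intronic reads, Jak1 passed with DESeq2's Wald test (0.19) and with a replicate block (0.18, edgeR adjusted p = 0.048), and Stat6 was at -0.0010 with no filter and at -0.0078 with the block. Leaving out 1 library at a time gave intronic changes between 0.14 and 0.23 for Jak1, 0.22 and 0.34 for Jak3 and -0.11 and 0.065 for Stat6.

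For exonic minus intronic changes, Stat3 was at -0.0012 with DESeq2 size factors and Jak2 at 0.0036 with no filter, where 56 genes were called higher and 47 lower, against 16 and 15. Leaving out 1 library gave 3 to 12 higher and 7 to 11 lower calls, and values between -0.11 and 0.039 for Jak2, -0.048 and 0.10 for Stat2, -0.064 and 0.048 for Stat3, -0.012 and 0.19 for Stat5a, and -0.045 and 0.14 for Stat6. It also gave log2 ratios between -0.038 and 0.040 for Stat5a over Stat5b and between -0.099 and 0.011 for Jak3 over Jak1, and a dTAG-13 minus DMSO difference in intronic percent between -1.997 and 0.283. The cause of these shifts was not tested. Deviations from the group means had r between -0.02 and 0.05 for same-numbered libraries and between -0.09 and 0.11 for other pairs. Of the 4 dTAG-13 replicates, 2 were closest to the DMSO library of their own number. These weak values cannot exclude a pairing. The sources used here name none, so the replicate block is an alternative only. An exact sign-flip permutation test over 4 pairs cannot go below p = 0.125. Intronic reads of Stat5a, Tyk2 and Stat2 were few and limit those intervals.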
